A study of Homo sapiens with 17 samples.

Results

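NKYS cells electroporated with an empty plasmid vector were compared with NKYS cells electroporated with a control siRNA. NKYS is an established human line of extranodal NK/T-cell lymphoma. The comparison uses 6 of the 17 arrays of the series, chosen by title. There were 2 arrays labelled vector control and 4 labelled control siRNA, of which 2 served as controls of a JAK3 knockdown (the JAK3 arm) and 2 as controls of an EZH2 knockdown (the EZH2 arm). The 11 other arrays held 7 with an EZH2 plasmid (Y244D, Y244A and WT with 2 each, and SET∆ with 1) and 4 with a knockdown siRNA (JAK3 and EZH2 with 2 each). All cells grew in the same medium with interleukin-2 and received their nucleic acid by Neon electroporation. Neither the plasmid backbone, the siRNA sequence, the amounts nor the time between electroporation and harvest is given in the labels. No array pairs a plasmid with an siRNA in 1 arm, so the transfected nucleic acid and any batch of cells, electroporation, RNA or hybridisation cannot be told apart in any value below. EZH2, the histone methyltransferase of Polycomb repressive complex 2, ADAM19, a membrane metalloprotease, and ABCG2, a drug efflux pump, marked the comparison.

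Electroporation opens the cell membrane briefly and lets nucleic acid in. An siRNA is a short RNA duplex that acts in the cytosol through Argonaute proteins. A plasmid is a much longer circular DNA that must reach the nucleus to be transcribed. DNA in the cytosol can be sensed by cGAS, which in many cells leads to type I interferon and interferon-stimulated genes. NK-lineage lymphoma cells depend on interleukin-2, whose receptor signals through JAK3 and STAT5, and cycling cells express separate waves of genes, one for DNA replication under E2F factors and a later one for mitosis under the DREAM complex and B-MYB with FOXM1.

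The deposited values are linear signal intensities, and a gene was represented by 1 probe set. Differences are given on the log2 scale after quantile normalization of the 6 arrays, vector minus control, and per-array signals are as deposited. The vector arrays differed from the control arrays in their whole distribution. The interquartile range of log2 signal was 1.79 and 2.183 on vector arrays 1 and 2, against 2.281 to 2.33 on the control arrays, and the median signal was 72.98 and 64.48, against 60.28 to 61.71. Vector array 1 stood apart, since its log2 values correlated with the controls at 0.783 to 0.797 and with vector array 2 at 0.855 across the genes tested. Vector array 2 correlated with the controls at 0.943 to 0.947, and the 4 controls with each other at 0.991 to 0.998. The cytotoxic genes PRF1, GZMB and NKG7 lay at percentiles 99.3, 99.5 and 98.1 of all probe sets in the controls. NCAM1, CD7, KLRD1 and TYROBP, also set as markers of the line, lay at 77.1, 75.2, 72.3 and 55.1. The T, B and monocyte markers CD3D, CD3G, MS4A1 and CD14 lay at 25.7, 26.9, 20.9 and 39.6, and CD2, often found on NK cells, at 30.8. TRAT1 and CD247 of the T cell list had median signals of 229 and 336 on the knockdown siRNA arrays, against 159 for NCAM1.

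More genes fell than rose with the vector. Of 14466 genes tested, 402 rose (2.78%) and 1402 fell (9.69%), in all 12.5% (limma, Benjamini-Hochberg adjusted p under 0.05). Counts of calls in the gene lists below are to be read against these shares. At least 2-fold rises numbered 88 and at least 2-fold falls 695, and at least 4-fold 5 and 71. The median difference of all genes tested was 0.01. The 2 vector arrays were far less alike than the controls, with a median SD of log2 values of 0.322 between the vectors and 0.0785 among the controls, and limma pools both into 1 spread. With arrays weighted by their own spread 42 genes were called, and with the control arm as a random block 281 were. Of the 111 called genes that the naming rule picked, 7 and 40 kept their call in these fits. The labels do not say whether arrays came from separate cultures, so a p-value here reflects how far these particular arrays vary, which may be technical.

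Each of the 1804 calls pointed the same way in either vector, but the sizes differed. A call favours such agreement, since the gap between the vectors adds to the spread that limma uses. The share of all genes tested with the same sign in both vectors was not counted. Across genes, the difference of vector array 1 from the control mean correlated with that of vector array 2 at 0.534. These points share the 4 controls. Vector array 1 had the larger difference in 1395 of the 1804 called genes, and the median size in array 2 relative to array 1 was 0.666 among falls and 0.874 among rises. With vector array 2 alone against the controls, 1975 genes rose (13.7%) and 2192 fell (15.2%), among them all 402 rises and 1401 of the 1402 falls. With vector array 1 alone, 4946 rose (34.2%) and 5646 fell (39%), among them all 1804 calls. In both of these fits the lone vector is assumed to vary like the controls. The calls were made on these same arrays, so their return in these fits is no separate support.

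**Figure D1:**
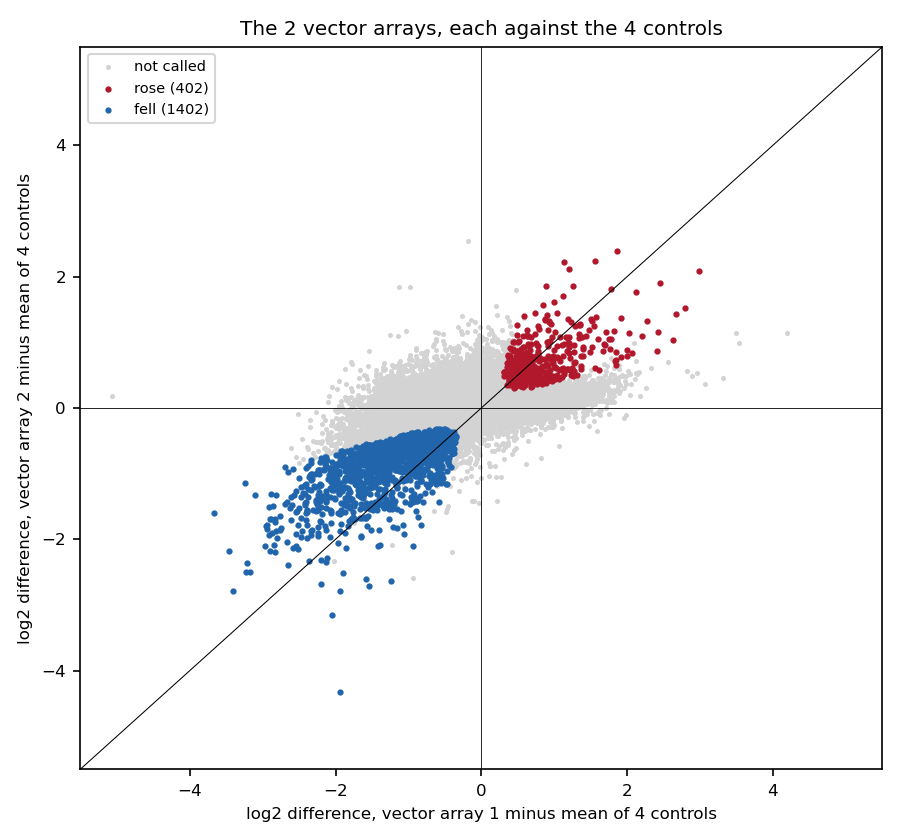
Log2 difference from the mean of the 4 control arrays in vector array 1 (horizontal axis) and vector array 2 (vertical axis), one point per gene, with the 402 rises in red and the 1402 falls in blue; the diagonal marks equal differences. Falls lie mostly above the diagonal, where vector array 1 shows the larger fall.

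Both vectors lay above all 4 controls, in deposited signal and after quantile normalization, for 2188 genes (15.1% of 14466), and below them for 3120 (21.6%), in all 36.7%. Of these, 248 of the higher and 1400 of the lower genes were also called, and 3660 were not. Another 154 called rises and 2 called falls did not meet the rule on both scales. The choice of scale matters for rises: 12 genes lay on opposite sides on the 2 scales. In deposited signal 239 genes rose (1.65%) and 2076 fell (14.4%), so rises made up 10.3% of calls as deposited and 22.3% after quantile normalization. With each array centred on its median they made up 4.25%, and the median of all genes then stood at -0.145. EGLN3 and GPD1 lay just inside the rule on the higher side and CARMIL3 and LYSET just outside, and on the lower side GVQW3 and KIF3A lay just inside and OMA1 and MCU just outside. LYSET, for instance, had 273 and 255 in the vector arrays, against 255, 243, 255 and 245 in the control arrays.

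Falls were concentrated among genes with a high signal in the controls. Of genes in the top quartile of control level, 23.1% fell and 4.53% rose, with a median difference of -0.34. Of those in the bottom quartile, 0.498% fell and 0.249% rose, with a median of 0.08. This gradient runs the same way as the narrower signal range of the vector arrays, and what part the range has in the falls was not tested.

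EZH2 was lower with the vector. Its signal was 259 and 349 in the vector arrays, against 891, 871, 926 and 691 in the control arrays, a difference of -1.04 (SE 0.15, adjusted p = 0.00954) by limma, and -1.48 as deposited. All 4 controls exceeded both vectors. That is the rule by which the comparison keeps genes, and 21.6% of all genes met it in this direction. ABCG2 had 51.8 and 74.0 in the vector arrays, against 195, 186, 168 and 175 in the control arrays, and fell by 1.60 (SE 0.20, limma adjusted p = 0.00689). ADAM19 had 151 and 99.0 in the vector arrays, against 465, 447, 314 and 281 in the control arrays, a difference of -1.30 (SE 0.31, adjusted p = 0.0455) by limma. For ADAM19 the vectors again met this rule by lying below every control, and the controls of the JAK3 arm lay above those of the EZH2 arm. With the control arm as a random block the limma adjusted p was 0.261 for EZH2, 0.0264 for ABCG2 and 0.117 for ADAM19, and with array weights it was 0.303, 0.0606 and 0.409. Within 1 control arm none of the 3 passed by limma. Against the JAK3 arm alone the differences were -1.09 for EZH2, -1.60 for ABCG2 and -1.53 for ADAM19 (limma adjusted p = 0.141, 0.18 and 0.222), and against the EZH2 arm alone -0.98, -1.47 and -0.97 (limma adjusted p = 0.233, 0.2 and 0.38). Without any 1 control array ADAM19 did not pass (limma adjusted p = 0.0799 to 0.128). JAK3 itself had 206 and 262 in the vector arrays, against 322, 326, 339.9 and 309.7 in the control arrays. It lay below all controls as deposited (-0.48), but its difference after quantile normalization was -0.10 (limma adjusted p = 0.453) and did not pass.

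Polycomb repressive complex 2 methylates histone H3 on lysine 27 and silences genes. Among its 12 genes tested, 4 fell and 1 rose, against 9.69% and 2.78% of all genes. The list median was -0.15 (-0.32 in vector array 1 and -0.01 in vector array 2). Besides EZH2, the accessory subunit gene PHF19 fell by 1.10 (adjusted p = 0.0139) and the histone-binding subunit gene RBBP7 by 0.99 (adjusted p = 0.00680, both limma). PHF19 had 119 and 157 in the vector arrays, against 313, 310.4, 417 and 297 in the control arrays. RBBP7 had 529 and 948 in the vector arrays, against 1854, 1844, 1859.8 and 1941 in the control arrays. In both genes the groups did not overlap, which held for 1400 of the 1402 called falls and adds nothing to the calls. The core subunit gene SUZ12, named after its value was seen, fell by 0.40 (limma adjusted p = 0.0332). JARID2, which recruits the complex, rose by 0.63 (limma adjusted p = 0.0196), but with arrays centred on their median the sign turned to -0.004408. EED, the subunit that reads the mark, had -0.20 and did not pass. As deposited the list had 0 rises and 5 falls, and with the control arm as a random block 0 of the 12 were called.

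**Figure D2:**
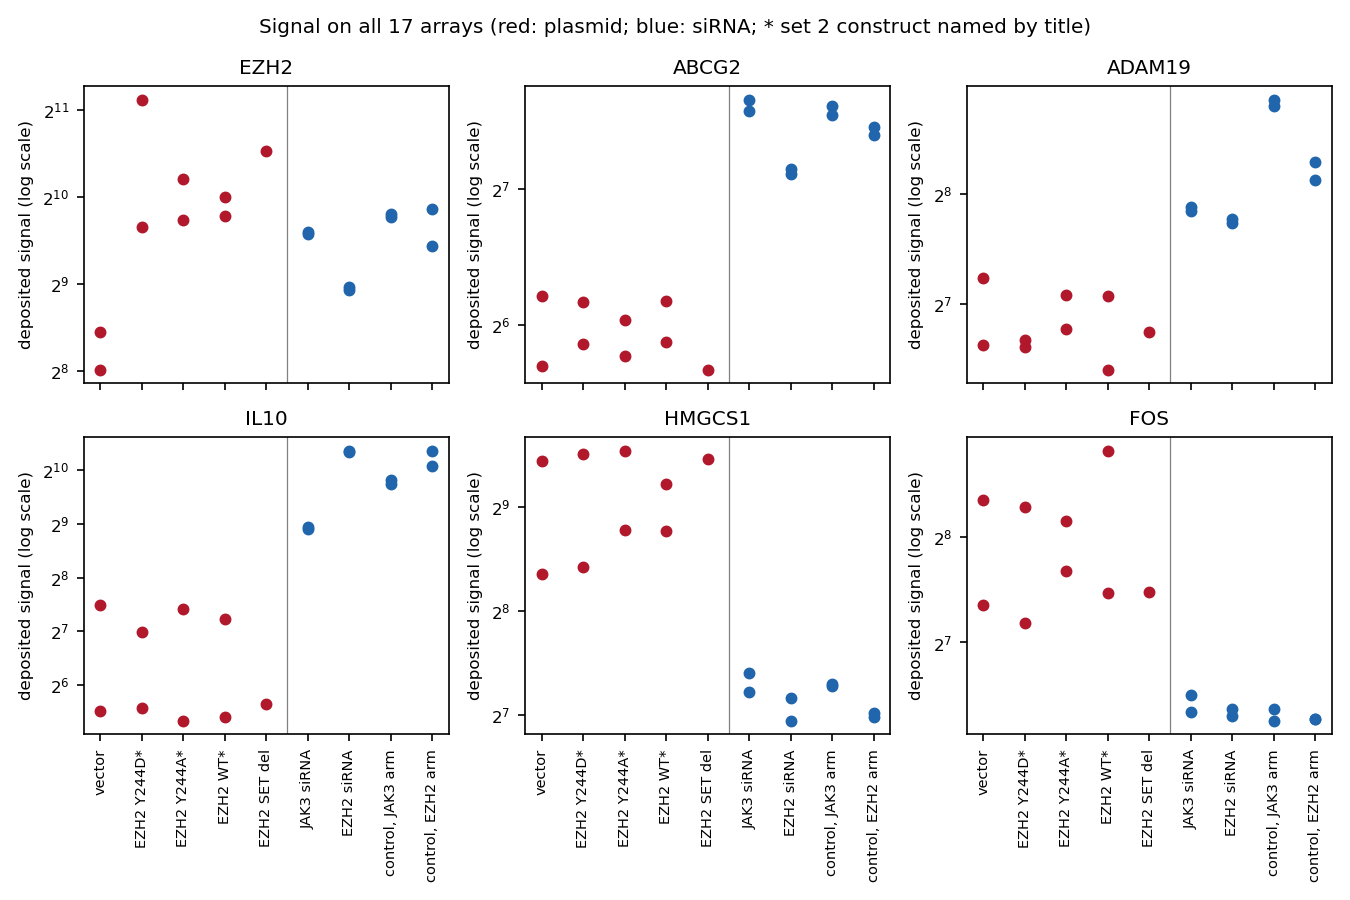
Deposited signal (log axis) of EZH2, ABCG2, ADAM19, IL10, HMGCS1 and FOS on all 17 arrays, one point per array, with the plasmid arrays in red at the left and the siRNA arrays in blue at the right of the grey line. Except in EZH2, every plasmid array lies on one side of every siRNA array; EZH2 is lowest in the 2 vectors.

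Genes of mitosis fell most. Of 29 tested, 28 fell and 0 rose, against 9.69% of all genes, with a median of -2.07 against 0.01 for all genes. The median was -2.34 in vector array 1 and -1.78 in vector array 2. In both vectors alike all 29 lay below every control on both scales, against 21.6% of all genes. The summed signal of the mitosis genes was 2698 and 3992 in the vector arrays, against 11655 to 16008 in the controls. CDK1, the kinase that drives entry into mitosis, had 35.3 and 52.7 in the vector arrays, against 324, 302, 319 and 344 in the control arrays. Its difference was -2.86 (SE 0.20, adjusted p = 0.00204) by limma, and in vector array 1 it lay under that array's lower quartile of 38.56, so the size there is uncertain. CCNB1, the cyclin that activates CDK1, had 50.6 and 79.9 in the vector arrays, against 289, 303, 504 and 418 in the control arrays. Its difference was -2.53 (SE 0.32, adjusted p = 0.00709) by limma, and the controls of the EZH2 arm were higher than those of the JAK3 arm.

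Several of the genes named for their falls encode motor proteins of the spindle or of cytokinesis. KIF23, which bundles microtubules at the midzone, had 90.5 and 128 in the vector arrays, against 595, 533, 809 and 709.8 in the control arrays, and KIF20A, which acts in cytokinesis, had 47.1 and 74.0 in the vector arrays, against 340.3, 335, 575 and 437 in the control arrays. Their differences were -2.51 and -2.79 (limma adjusted p = 0.00352 and 0.00552). KIF14, another cytokinesis motor, fell by 2.54, and the microtubule depolymerase gene KIF2C fell by 2.03 (limma adjusted p = 0.00344 and 0.00265). MAD2L1, the spindle checkpoint protein gene, had 72.6 and 87.0 in the vector arrays, against 390.3, 337, 418 and 492 in the control arrays, and fell by 2.32 (limma adjusted p = 0.00250). The kinetochore gene SPC25 fell by 2.14 (limma adjusted p = 0.00206), a size that is uncertain too, since vector array 1 had 29.7 there, again under its lower quartile. AURKB, the kinase of the chromosomal passenger complex, was the 1 member that did not pass, at -0.67. Outside the list, the mitotic kinase gene PBK had 54.7 and 72.3 in the vector arrays, against 514, 449, 617 and 646 in the control arrays, a difference of -3.10 (SE 0.23, adjusted p = 0.00204) by limma. DLGAP5, which stabilises spindle microtubules, fell by 2.82, and ESCO2, which acetylates cohesin during replication, by 2.53 (limma adjusted p = 0.00912 and 0.00191). With the control arm as a random block, 20 of the 29 mitosis genes were called, and with array weights 1.

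**Figure D3:**
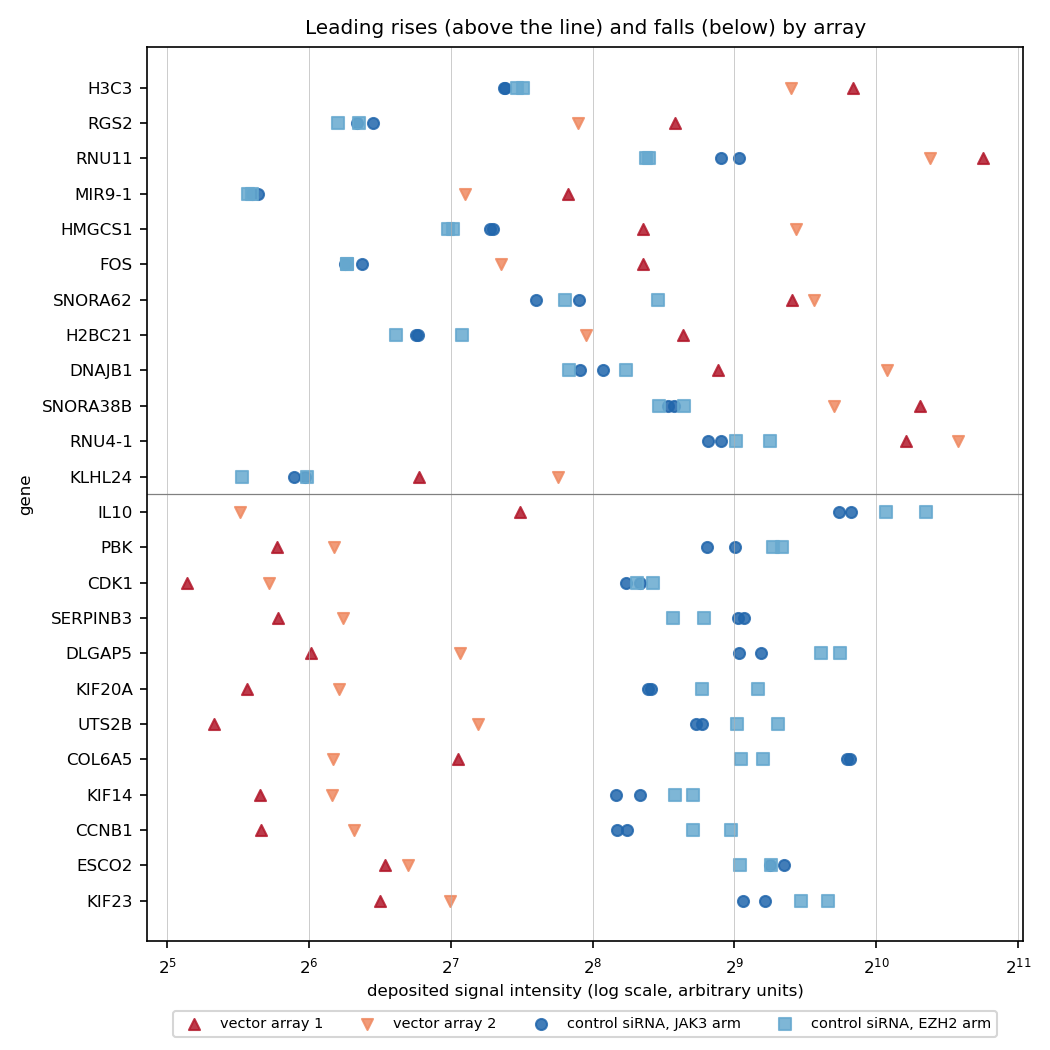
Deposited signal (log axis) of the 12 leading rises (above the line) and the 12 leading falls (below it) on the 6 arrays, with vector arrays as triangles and control arrays as circles (JAK3 arm) and squares (EZH2 arm). Both vectors lie on one side of all 4 controls in all 24 genes because the genes were chosen for it.

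The promoters of these genes are shown because many of them carry the same short motifs. The sequences are the 250 bases before a RefSeq start (GRCh38.p14, plus strand), and capitals mark TTTGAA, the core of the cell cycle genes homology region bound by DREAM, and ATTGG, the reverse complement of the CCAAT box bound by NF-Y. CDK1 lies on chromosome 10 (chr10:60778228-60778477, the second of its 2 starts listed) and KIF23 on chromosome 15 (chr15:69414099-69414348).
CDK1: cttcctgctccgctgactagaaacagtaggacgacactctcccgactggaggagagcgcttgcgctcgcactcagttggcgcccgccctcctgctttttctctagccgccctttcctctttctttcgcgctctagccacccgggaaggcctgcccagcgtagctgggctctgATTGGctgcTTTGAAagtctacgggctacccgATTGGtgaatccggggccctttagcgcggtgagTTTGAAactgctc
KIF23: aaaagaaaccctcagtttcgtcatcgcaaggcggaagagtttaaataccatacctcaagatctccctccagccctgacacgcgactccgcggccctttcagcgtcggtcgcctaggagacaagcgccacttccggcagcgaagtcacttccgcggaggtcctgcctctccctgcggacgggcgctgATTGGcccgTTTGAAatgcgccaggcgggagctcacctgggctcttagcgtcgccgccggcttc
Each holds TTTGAA shortly after a CCAAT box in inverted orientation. On either strand, TTTGAA was found in the 250 bases of 11 of 23 mitosis genes with a listed promoter (47.8%), against 12.3% of all genes tested. CCAAT was found in 78.3% of the mitosis genes and 40.3% of all genes tested. In all promoters of the table, over 27305 genes, these shares were 16.1% and 37.0%. A match describes the letters and not a bound site.

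DNA replication genes fell as well. Of 41 tested, 36 fell, against 9.69% of all genes, and 0 rose. The median was -1.32 (-1.45 and -1.20 in vector arrays 1 and 2). In 40 both vectors lay below every control on both scales, against 21.6% of all genes. The summed signal of the replication genes was 6478 and 7938 in the vector arrays, against 21940 to 22987 in the controls. TYMS, the thymidylate synthase gene, had 221 and 303 in the vector arrays, against 1196, 1183, 1422 and 1299 in the control arrays. Its difference was -1.88 (SE 0.12, adjusted p = 0.00204) by limma. CDC6, which loads the replicative helicase, had 88.7 and 76.7 in the vector arrays, against 369, 357, 312 and 337 in the control arrays, and fell by 2.01 (SE 0.10, limma adjusted p = 0.00191). CLSPN, the fork checkpoint adaptor gene, fell by 1.74 and GINS1, a helicase subunit gene, by 1.67 (limma adjusted p = 0.00191 and 0.00201). The vectors differed from each other by far less than from the controls in these 4 genes. LIG1, CDT1, POLE, RPA1 and RPA3 did not pass, at -0.50, -0.50, -0.40, -0.25 and -0.12. With the control arm as a random block 23 of the 41 were called, and with array weights 2.

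The TYMS promoter is printed for the E2F-like motif that many replication genes hold. It lies on chromosome 18 (chr18:657403-657652, plus strand, GRCh38.p14), and capitals mark TTTNNCGC, here on the reverse strand.
TYMS: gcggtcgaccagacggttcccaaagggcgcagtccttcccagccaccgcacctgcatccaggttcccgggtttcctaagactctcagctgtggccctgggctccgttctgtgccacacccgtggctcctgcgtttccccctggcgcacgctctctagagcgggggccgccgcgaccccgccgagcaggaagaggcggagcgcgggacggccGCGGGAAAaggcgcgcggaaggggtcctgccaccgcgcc
TTTNNCGC was present on either strand in 16 of 35 replication genes with a listed promoter (45.7%), against 8.7% of the mitosis genes, 10.3% of all genes tested and 7.15% of all promoters of the table. TTTGAA was present in 1 of the 35 (2.86%). Across calls, TTTNNCGC was held by 7.34% of rises and 15.6% of falls, and TTTGAA by 7.69% of rises and 16.6% of falls, while CCAAT was held by more of the rises (49.3%) than of the falls (43.9%).

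Replication-dependent histone genes, which package new DNA and are copied in S phase, did not move as 1 group. Of 42 tested, 1 rose and 11 fell, with a median of -0.20. The linker histone gene H1-5 had 407 and 479 in the vector arrays, against 1991, 2159.6, 2200 and 1804 in the control arrays, and fell by 1.81, while H1-4 fell by 1.11 and H2BC7 by 1.63 (limma adjusted p = 0.00265, 0.00638 and 0.00204). The 1 rise was H3C3, also the leading rise of all genes, with 915 and 676 in the vector arrays, against 166, 167, 182 and 177 in the control arrays and a difference of 2.54 (SE 0.24, adjusted p = 0.00328) by limma. The core histone genes are near-identical copies, so which of them gave the signal is uncertain. H2BC21, a histone H2B gene outside the list, rose by 1.79 (limma adjusted p = 0.0219), with 399 and 247 in the vector arrays, against 109, 108, 135 and 97.9 in the control arrays. The list median was -0.01 in vector array 1 and -0.37 in vector array 2. As deposited 2 of the 42 rose and 21 fell, and with the control arm as a random block 1 rose and 1 fell.

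Ribosome biogenesis genes, which build ribosomes in the nucleolus, fell in 20 of 22 members, against 9.69% of all genes. The list had 0 rises and a median of -1.11. Nucleolin, NCL, had 1254 and 1538 in the vector arrays, against 3336, 3385, 3493 and 3284 in the control arrays, and fell by 0.99 (SE 0.09, limma adjusted p = 0.00324). The nucleolar RNA helicase gene DDX21 fell by 1.16, the box C/D snoRNP core gene NOP58 by 0.95 and the rRNA processing gene WDR43 by 0.90 (limma adjusted p = 0.00327, 0.00336 and 0.00373). Their differences were of like size in both vectors, as the list medians of -1.16 and -1.04 show. MYBBP1A (-0.66) and BOP1 (-0.29) did not pass. With the control arm as a random block 8 of the 22 were called, and with array weights 1.

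Cytosolic ribosomal protein genes moved less, with 0 rises and 7 falls of 42, against 2.78% and 9.69% of all genes. Their median was -0.33 (-0.54 in vector array 1 and -0.11 in vector array 2). RPL23 had 72.4 and 99.3 in the vector arrays, against 192, 167, 193 and 190.0 in the control arrays, and fell by 1.17. RPL22 fell by 1.16, RPS7 by 0.63 and RPS13 by 0.57, with limma adjusted p from 0.00746 to 0.0273. Many ribosomal protein genes have processed copies elsewhere in the genome, so their signals are uncertain. Respiratory chain genes had 0 rises and 11 falls of 47 and a median of -0.58, again larger in vector array 1 (-0.78) than in array 2 (-0.25). ATP5MC1, a ring subunit gene of ATP synthase, had 275 and 393 in the vector arrays, against 1266, 1263, 1560.4 and 1018 in the control arrays, a difference of -1.49 (SE 0.18, adjusted p = 0.00652) by limma. ATP5F1A, its catalytic-head subunit gene, fell by 0.87, and NDUFV1 and NDUFV2 of complex I by 0.67 and 0.59. As deposited 12 ribosomal protein and 23 respiratory chain genes fell, and with the control arm as a random block or with array weights 0 of either list were called.

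Glycolysis and hypoxia genes were divided, with 1 rise and 10 falls of 26 and a median of -0.26. LDHA, which turns pyruvate into lactate, had 1212 and 1444 in the vector arrays, against 5125, 4924, 5113 and 4394 in the control arrays, and fell by 1.60 (SE 0.12, limma adjusted p = 0.00204). ENO1, the enolase gene, fell by 1.04, and the hexokinase gene HK2 by 0.96. The glucose transporter gene SLC2A3 was the rise, at 0.86 (limma adjusted p = 0.00792), with 634 and 767 in the vector arrays, against 573, 552, 486 and 525 in the control arrays. Its neighbour in function, SLC2A1, named after its value was seen, fell by 0.62 (limma adjusted p = 0.0408). As deposited 0 rose and 9 fell, and with the control arm as a random block 0 rose and 1 fell.

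IL10, the gene of an anti-inflammatory cytokine, led all falls. Its signal was 179 and 45.7 in the vector arrays, against 904, 852, 1077 and 1305 in the control arrays, a difference of -3.14 (SE 0.61, adjusted p = 0.0246) by limma. Vector array 2 was far below vector array 1, with -4.33 against -1.94. Leading falls were chosen among genes in which both vectors lay below every control. Of the 16 cytokine and chemokine genes tested, IL10 and TGFB1 fell and 0 rose, with a list median of -0.15. TGFB1 had 284 and 459 in the vector arrays, against 812, 832, 832 and 765 in the control arrays, a difference of -0.70 (SE 0.10, adjusted p = 0.00995) by limma. None of the 16 was called by limma with the control arm as a random block or with array weights.

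The interleukin-2 and STAT5 response genes held 7 falls and 0 rises among 25 tested, with a median of -0.55 (-0.13 in vector array 1 and -0.56 in vector array 2). As deposited 12 of the 25 fell, and with the control arm as a random block 1 did. IL2RA, the high-affinity receptor chain gene, had 1392 and 937 in the vector arrays, against 4027, 3968, 3349 and 3702 in the control arrays, and fell by 1.49 (SE 0.24, limma adjusted p = 0.0136). Its signal was lower in vector array 2 than in array 1. IL2RB, the receptor chain gene shared with interleukin-15, fell by 0.55, the kinase gene PIM2 by 0.71 and the feedback inhibitor gene SOCS2 by 0.76 (limma adjusted p = 0.0145, 0.0187 and 0.00619). The groups did not overlap in any of these 4 genes, but this held for 1400 of the 1402 called falls and adds nothing to the calls. BCL6, a repressor that STAT5 holds down, had 1.18 and did not pass (limma adjusted p = 0.260). Among JAK and STAT genes 2 rose and 2 fell of 14, and STAT6 rose by 0.68 (limma adjusted p = 0.0113). The STAT6 call rests on quantile normalization: as deposited the gene had 326 and 476 in the vector arrays, against 359, 359, 324 and 307 in the control arrays, so that vector array 1 lay among the controls, and its difference was 0.23 (limma adjusted p = 0.328). As deposited the JAK and STAT list had 0 rises and 2 falls, with centring 0 rises and 4 falls, and with the control arm as a random block 0 calls.

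Of 24 NK identity and cytotoxicity genes, 4 fell and 0 rose, against 9.69% and 2.78% of all genes, with a list median of 0.00. NFIL3, a transcription factor needed for NK development, had 95.0 and 160.2 in the vector arrays, against 386, 354, 328 and 319.7 in the control arrays, and fell by 1.40 (limma adjusted p = 0.0157). The granule membrane gene NKG7 fell by 0.82, NCAM1, which encodes CD56, by 0.88, and the activating receptor gene CD226 by 0.87 (limma adjusted p = 0.0104, 0.00906 and 0.0451). GZMB (-1.04) and PRF1 (-0.27) did not pass. In whole-culture RNA, fewer cells of a kind and less RNA per cell cannot be told apart. None of the 24 was called by limma with the control arm as a random block or with array weights.

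Other leading falls stood outside these lists. SERPINB3, a serine and cysteine protease inhibitor gene, had 54.9 and 75.4 in the vector arrays, against 520.0, 538, 380.2 and 441 in the control arrays, a difference of -2.83 (SE 0.22, adjusted p = 0.00209) by limma. UTS2B, a urotensin-related peptide gene, had 40.3 and 146 in the vector arrays, against 438, 424, 519.5 and 633 in the control arrays, a difference of -2.64 (SE 0.53, adjusted p = 0.0267) by limma. COL6A5, a collagen VI chain gene, had 133 and 72.1 in the vector arrays, against 903, 890.2, 529 and 588 in the control arrays, a difference of -2.60 (SE 0.36, adjusted p = 0.00913) by limma. UTS2B was lower in vector array 1 and COL6A5 in vector array 2. Beside ABCG2, the efflux pump gene ABCC4 fell by 1.27 (limma adjusted p = 0.00299), and these 2 were the falls among 7 stemness and drug efflux genes. Among 24 metalloprotease and matrix genes, ADAM19 and TIMP1 fell and MMP14 rose, TIMP1 by 0.70 and MMP14 by 0.38 (limma adjusted p = 0.0365 and 0.0494). These counts are near the shares of all genes, of which 9.69% fell and 2.78% rose.

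Small nucleolar RNAs made up the broadest set of rises among the lists. Box C/D snoRNAs guide ribose methylation of ribosomal RNA, and H/ACA snoRNAs guide pseudouridylation. The H/ACA list here also holds Cajal body RNAs. Of 69 box C/D genes tested, 27 rose and 3 fell, with a median of 0.62, and of 72 H/ACA and Cajal body genes, 31 rose and 1 fell, with a median of 0.57. Their share of all signal was 5.714% and 5.007% in the vector arrays, against 2.955% to 3.505% in the controls. SNORA62 had 678 and 756 in the vector arrays, against 239.8, 194, 223 and 352 in the control arrays, a difference of 1.95 (SE 0.24, adjusted p = 0.00668) by limma. SNORA38B had 1266 and 835 in the vector arrays, against 371, 381, 355 and 400.0 in the control arrays, and rose by 1.80 (limma adjusted p = 0.00919). SNORD41 had 3419.7 and 3369 in the vector arrays, against 1927, 1812, 1688 and 1864 in the control arrays, and rose by 1.10 (limma adjusted p = 0.00336). Both vectors exceeded all controls in SNORD41, as they did on both scales in 248 of the 402 called rises. SNORA62 and SNORA38B are leading rises, which were chosen for it. SNORD8, SNORD14E and SNORA49 rose by 1.42, 1.15 and 1.40, with limma adjusted p of 0.00301, 0.00336 and 0.00274. snoRNA genes come in near-identical copies, and most lie in introns of other genes, whose unspliced RNA such probes can also read. With the control arm as a random block 1 box C/D and 7 H/ACA and Cajal body genes were called, and with array weights 0 of either.

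Of the 12 leading rises, 2 were genes of spliceosomal RNAs, which none of the lists holds. RNU11, the U11 RNA of the minor spliceosome, had 1728 and 1332 in the vector arrays, against 479, 525, 337 and 332 in the control arrays, a difference of 2.18 (SE 0.24, adjusted p = 0.00539) by limma. RNU4-1, a U4 gene with near-identical copies, had 1184 and 1528 in the vector arrays, against 451, 479.5, 516 and 609.9 in the control arrays, a difference of 1.79 (SE 0.15, adjusted p = 0.00241) by limma. Leading rises were chosen among genes in which both vectors exceeded every control.

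MIR9-1, which encodes a precursor of the microRNA miR-9, was the leading rise among 84 microRNA genes tested, of which 2 rose and 4 fell. Its signal was 227 and 137 in the vector arrays, against 49.9, 48.5, 48.5 and 47.4 in the control arrays, a difference of 2.06 (SE 0.31, adjusted p = 0.0117) by limma. The hairpin lies on chromosome 1, minus strand, and gives a mature RNA from each arm, shown with the seed (bases 2 to 8) in capitals (RefSeq, GRCh38.p14, chr1:156420392-156420414 and chr1:156420354-156420375).
hsa-miR-9-5p: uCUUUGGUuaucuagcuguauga
hsa-miR-9-3p: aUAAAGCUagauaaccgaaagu
The 2 arms carry different seeds, and the array does not tell either arm from the precursor. MIR149 rose by 0.90, while MIR17HG, the host gene of a cluster of growth-promoting microRNAs, fell by 1.08 and MIR503 by 0.84 (limma adjusted p = 0.0264, 0.00792 and 0.0252). Of 15 genes of the RNA interference machinery, TNRC6B, a silencing partner of Argonaute, rose by 0.65 (limma adjusted p = 0.0478), and 0 fell.

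Immediate early genes answer growth and stress signals within minutes. Of 23 members tested 5 rose, against 2.78% of all genes, and 0 fell. In 16 both vectors lay above every control on both scales, against 15.1% of all genes. The list median was 0.63, made of 1.16 in vector array 1 and 0.19 in vector array 2. FOS, a subunit of the AP-1 factor, had 327 and 164 in the vector arrays, against 82.7, 76.3, 77.2 and 77.1 in the control arrays, a difference of 1.84 (SE 0.40, adjusted p = 0.0325) by limma. JUNB, its partner, had 1057 and 1300.4 in the vector arrays, against 748, 741, 682 and 718 in the control arrays, and rose by 1.12 (SE 0.09, limma adjusted p = 0.00246). ZFP36, which destabilises cytokine mRNAs, had 362 and 372 in the vector arrays, against 141, 139.6, 164 and 154 in the control arrays, and rose by 1.65 (limma adjusted p = 0.00426). FOS differed between the vectors, while JUNB and ZFP36 were close in both. JUND rose by 1.29 (limma adjusted p = 0.0366). MYC was below 0, at -0.97, and did not pass (limma adjusted p = 0.0709). RGS2, an inhibitor of G protein signalling that lies outside the list, had 383 and 239 in the vector arrays, against 87.5, 80.7, 73.9 and 81.8 in the control arrays, a difference of 2.16 (SE 0.33, adjusted p = 0.0114) by limma. As deposited 8 of the 23 rose and 2 fell, and with the control arm as a random block 2 rose and 0 fell.

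The FOS promoter holds the cAMP response element core TGACG, which members of the CREB and ATF families bind, and is printed for it (chromosome 14, chr14:75278578-75278827, plus strand, GRCh38.p14).
FOS: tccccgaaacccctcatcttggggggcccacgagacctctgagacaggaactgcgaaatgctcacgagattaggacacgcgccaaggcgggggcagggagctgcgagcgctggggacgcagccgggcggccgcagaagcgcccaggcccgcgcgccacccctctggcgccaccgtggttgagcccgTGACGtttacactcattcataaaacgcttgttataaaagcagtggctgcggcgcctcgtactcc
TGACG was found on either strand in 11 of 18 immediate early genes with a listed promoter (61.1%), against 33.5% of all genes tested and 24.9% of all promoters of the table. It was held by 46.2% of rises and 36.8% of falls.

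Genes of the ATF4 pathway and of endoplasmic reticulum stress rose in 7 of 25 members, against 2.78% of all genes, with 0 falls. Their median of 0.33 turned to -0.0195 with arrays centred on their median. ATF4, the transcription factor of the integrated stress response, had 833 and 550.3 in the vector arrays, against 277, 312, 264 and 295 in the control arrays, a difference of 1.65 (SE 0.29, adjusted p = 0.0173) by limma. DDIT3, which encodes its target CHOP, had 191 and 176 in the vector arrays, against 94.3, 90.6, 77.1 and 75.4 in the control arrays, and rose by 1.32 (limma adjusted p = 0.00911). Both genes were higher in vector array 1 than in array 2. The amino acid response genes ASNS (0.09) and TRIB3 (-0.16) did not pass. SEL1L and SLC3A2 rose by 0.60 and 0.61 but turned to -0.03602 and -0.01951 with arrays centred on their median. As deposited the list had 3 rises and 3 falls, with centring 3 rises and 5 falls, and with the control arm as a random block 1 rise and 0 falls.

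Heat shock genes held 2 rises and 1 fall among 15, against 2.78% and 9.69% of all genes. DNAJB1, a co-chaperone of HSP70, had 472 and 1080.5 in the vector arrays, against 269, 240.5, 301 and 228 in the control arrays, a difference of 1.89 (SE 0.21, adjusted p = 0.00539) by limma. BAG3, another HSP70 partner, had 163 and 273 in the vector arrays, against 115, 108, 124 and 95.7 in the control arrays, and rose by 1.13 (limma adjusted p = 0.00877). For both genes vector array 2 was the higher one. HSP90AB1 fell by 0.45 but stood at 0.06232 with arrays scaled to 1 interquartile range. SQSTM1, the autophagy receptor gene in the oxidative stress list, rose by 1.07, and the thioredoxin gene TXN fell by 0.84 (limma adjusted p = 0.00819 and 0.00451). As deposited the heat shock list had 2 rises and 2 falls, with centring 0 rises and 2 falls, and with the control arm as a random block 0 calls.

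Cholesterol synthesis and uptake genes, which the factor SREBP2 controls, rose in 5 of 17 members with 0 falls. The list median was 0.47, with 0.00 in vector array 1 and 0.95 in vector array 2. HMGCS1, which makes the precursor of mevalonate, had 327 and 693 in the vector arrays, against 157, 155, 129 and 126 in the control arrays, a difference of 2.13 (SE 0.18, adjusted p = 0.00253) by limma. MSMO1, a sterol demethylation enzyme gene, had 361 and 1112 in the vector arrays, against 328, 320.1, 243 and 210.0 in the control arrays, and rose by 1.67 (limma adjusted p = 0.0239). CYP51A1, the lanosterol demethylase gene, had 296 and 659.5 in the vector arrays, against 272, 268, 216 and 216 in the control arrays, and rose by 1.31 (limma adjusted p = 0.0114). In all 3 genes vector array 2 was the higher one, and for MSMO1 and CYP51A1 the signal of vector array 1 lay only a little above the highest control. With vector array 2 alone 15 of the 17 were called higher, and with vector array 1 alone 6. As deposited the list had 2 rises and 1 fall, and MSMO1 and CYP51A1 did not pass (limma adjusted p = 0.0821 and 0.0857). With centring it had 1 rise and 1 fall and a median of 0.0893, with the control arm as a random block 2 rises, and with array weights 0 calls. KLHL24, a ubiquitin ligase adaptor gene among the leading rises, had 109.5 and 216 in the vector arrays, against 62.6, 59.5, 46.1 and 63.3 in the control arrays, a difference of 1.37 (SE 0.28, adjusted p = 0.0287) by limma.

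Genes that sense nucleic acid in the cytosol held 1 rise and 1 fall among 18 tested. CGAS, the main cytosolic DNA sensor, had -0.25, and its adaptor STING1 had 0.10, and neither passed (limma adjusted p = 0.437 and 0.460). The rise was POLR3D, an RNA polymerase III subunit gene, at 0.48, which turned to -0.08913 with arrays centred on their median. The fall was SAMHD1, which degrades nucleotides, with 224 and 408 in the vector arrays, against 860.3, 819, 771 and 730.3 in the control arrays and a difference of -0.96 (SE 0.14, adjusted p = 0.00954) by limma. CGAS and STING1 are named after their values were seen.

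Of 31 interferon-stimulated genes, 2 rose, against 2.78% of all genes, and 0 fell, with a median of 0.02 against 0.01 for all genes. ISG15, a ubiquitin-like protein gene, had 170.4 and 173 in the vector arrays, against 126, 123, 116 and 119 in the control arrays, and rose by 0.72 (SE 0.12, limma adjusted p = 0.0162). OASL, a relative of the oligoadenylate synthetases, had 147 and 180.2 in the vector arrays, against 124, 118, 109 and 116 in the control arrays, and rose by 0.65 (SE 0.09, limma adjusted p = 0.0105). MX1 (0.02) and RSAD2 (0.02), named after their values were seen, did not pass. As deposited 1 of the 31 rose, and with centring or with the control arm as a random block 0 did. In the NF-kB list, NFKB1 fell by 1.04 while NFKB2 rose by 0.57 (limma adjusted p = 0.0108 and 0.0489). As deposited NFKB2 had 258 and 349 in the vector arrays, against 298, 293, 216 and 264 in the control arrays, with vector array 1 among the controls, and a difference of 0.18 (limma adjusted p = 0.468). The third called member, RELA, rose by 0.43 but turned to -0.002641 as deposited and -0.1747 with arrays centred on their median. Of 20 p53 target genes 0 rose and 0 fell by limma, with 7 at an unadjusted p under 0.05, and CDKN1A, the cell cycle inhibitor gene, had 467 and 468 in the vector arrays, against 439, 437, 339.5 and 337 in the control arrays, a difference of 0.73 (adjusted p = 0.0589). Vector arrays 1 and 2 alone gave 9 and 2 higher calls among the 20.

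In the remaining lists few genes passed. Lysosomal genes held 2 rises and 2 falls of 23, against 2.78% and 9.69% of all genes. They were led by CTSC, a granzyme-activating protease gene, which fell by 1.87 (limma adjusted p = 0.0108). CTSC had 121 and 263 in the vector arrays, against 811, 814, 677 and 737 in the control arrays. Antigen presentation genes held 1 rise and 1 fall of 14. The fall was the immunoproteasome gene PSMB10, by 0.62, and the rise was TAP1, at 0.41, which turned to -0.06406 as deposited and -0.2361 with arrays centred on their median. None of 9 metallothionein, 9 T cell, 8 B cell, 5 monocyte, 11 epithelial and fibroblast, and 5 erythroid and platelet marker genes was called by limma, and 5 of these 47 had an unadjusted p under 0.05. In deposited signal limma called 3 of them, TRAT1 and PPBP lower and KRT18 higher (adjusted p = 0.0263, 0.00634 and 0.0364). Over all genes of a list on the array, the summed signal of the monocyte markers was 739 and 621 in the vector arrays, against 606 to 652 in the controls, and that of the B cell markers 801 and 648, against 634 to 689. The T cell markers summed to 2803 and 1942, against 2687 to 3702, with TRAT1 at -1.64. The epithelial and fibroblast markers summed to 1516 and 1021, against 941 to 974, with KRT18 at 1.46. The erythroid and platelet markers summed to 795 and 484 in the vector arrays, against 1163 to 1886 in the controls, with PPBP, a platelet chemokine gene, at -1.77. The part of other cell types in the results was not tested.

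**Figure D4:**
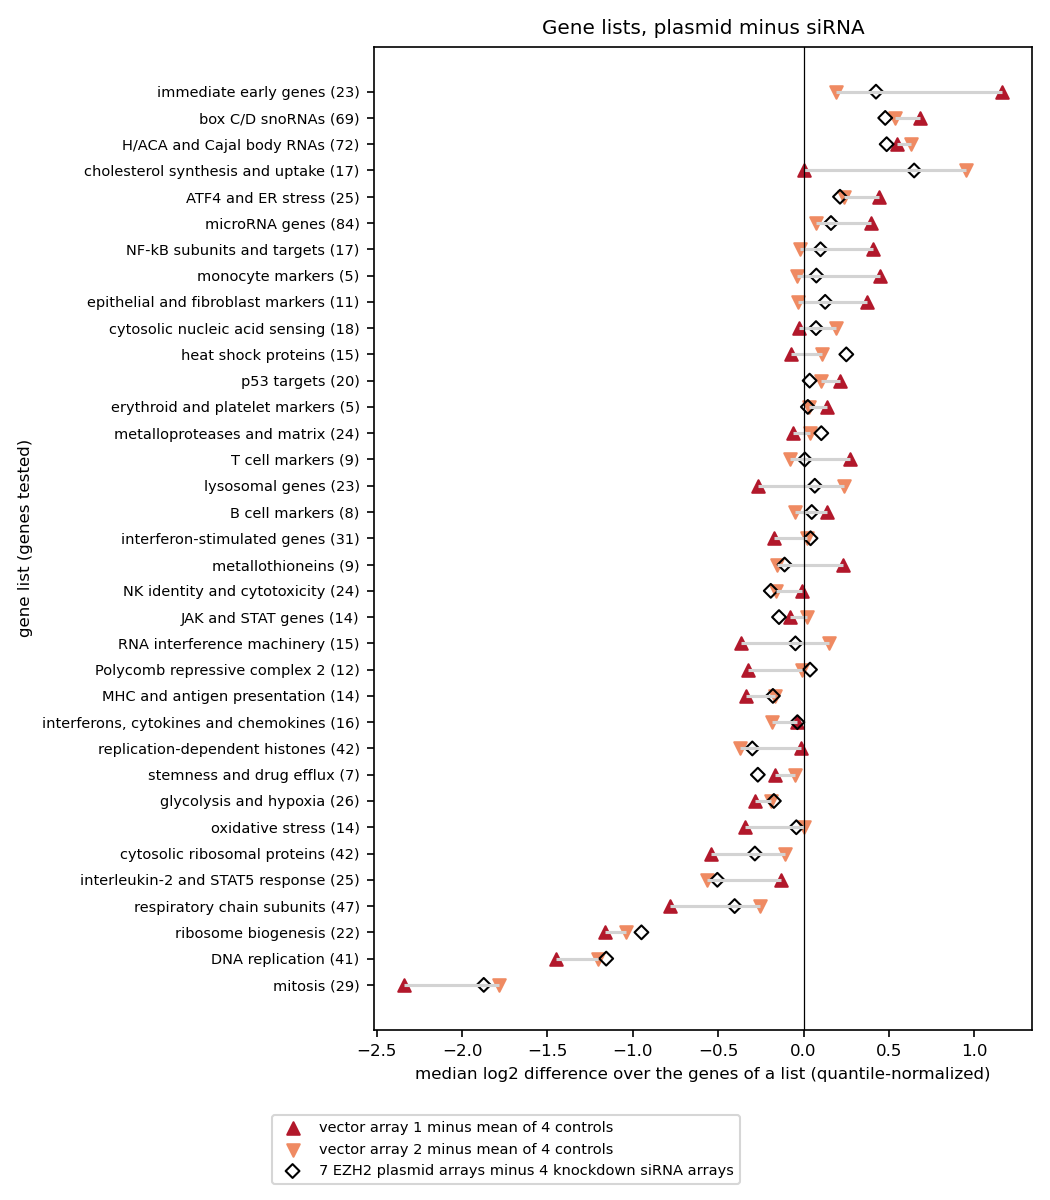
Median log2 difference of each gene list (number of genes tested in brackets) in vector array 1 and vector array 2, each minus the mean of the 4 controls, and in the 7 EZH2 plasmid arrays minus the 4 knockdown siRNA arrays. The lists of mitosis, DNA replication and ribosome biogenesis lie below -0.9 for all 3 marks, and the snoRNA lists lie above 0.

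The same contrast of plasmid and siRNA was read in arrays that the comparison above does not use, the 7 EZH2 plasmid arrays against the 4 JAK3 and EZH2 siRNA arrays. They differ also in cargo, and they may share batches with the vectors and the controls. Of 14428 genes tested, 2735 rose (19%) and 3443 fell (23.9%) by limma. Among the 402 rises with the vector 383 also rose there (95.3%, and 14% of the rises there), and among the 1402 falls 1361 also fell (97.1%, and 39.5% of the falls there). Across 14339 genes the differences of the 2 comparisons correlated at 0.942. Of the kept genes, 872 of 2188 higher and 2250 of 3120 lower ones lay on the same side of all siRNA arrays in all 7 plasmid arrays, on both scales. All 24 leading genes were called with the same sign, and 23 lay on the same side in every array, RNU4-1 being the exception. How many of all genes tested lay on one side in these arrays was not counted. The counts of genes on the same side therefore have no share of all genes to be read against.

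EZH2 was the 1 called gene with the opposite call. It had 803 to 2221 in the EZH2 plasmid arrays, against 489 to 776 in the knockdown siRNA arrays, a difference of 1.20 (limma adjusted p = 0.00493). There the plasmids carry EZH2 and 2 of the 4 siRNA arrays target it. ABCG2 had 50.9 to 72.3 in the EZH2 plasmid arrays, against 138 to 202 in the knockdown siRNA arrays, a difference of -1.39 (limma adjusted p = 1.07e-05). ADAM19 had 84.5 to 135 in the EZH2 plasmid arrays, against 213 to 235 in the knockdown siRNA arrays, a difference of -0.86 (limma adjusted p = 2.10e-04). Both lay below every siRNA array in every plasmid array.

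**Figure D5:**
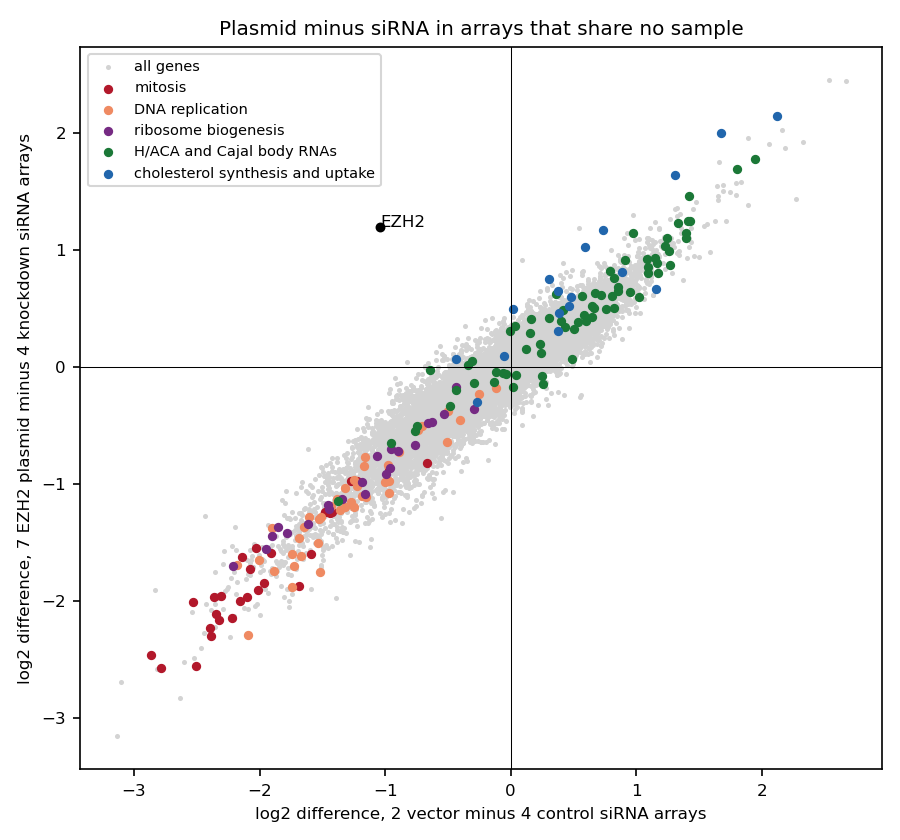
Log2 difference of each gene, 2 vector minus 4 control siRNA arrays (horizontal axis) and 7 EZH2 plasmid minus 4 knockdown siRNA arrays (vertical axis), with 5 gene lists coloured and EZH2 in black. Genes of mitosis, DNA replication and ribosome biogenesis lie at the lower left, most H/ACA and Cajal body RNAs and cholesterol genes at the upper right, and EZH2 at the upper left.

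For 3 genes in which the 2 vectors differed, the EZH2 plasmid arrays differed by their number in the same way. IL10 had 127, 170.3 and 149.9 in the EZH2 plasmid arrays numbered 1, 47.5, 40.4 and 42.3 in those numbered 2 or titled without a number, and 50.4 in the SET∆ array. HMGCS1 had 342, 437 and 436 in the arrays numbered 1, 727, 743 and 596 in the others with a full-length plasmid, and 703 with SET∆. FOS had 313, 286 and 453 in the arrays numbered 1, 145, 206 and 177 in the others with a full-length plasmid, and 179 with SET∆. Vector array 1, like the plasmid arrays numbered 1, had the higher IL10 and FOS and the lower HMGCS1. These 3 genes were chosen for this pattern after their values were seen. Other genes that differed between the vectors split by number too, among them RGS2, MIR9-1, ATF4 and DNAJB1. RGS2 had 389, 341 and 597 in the EZH2 plasmid arrays numbered 1, and 281, 286 and 299 in the others with a full-length plasmid. DNAJB1 had 540, 697 and 677 in the arrays numbered 1, and 1016, 878 and 915 in those others. How many genes split so was not counted, and CTSC and KRT18 did not. CTSC had 137, 218 and 172 in the arrays numbered 1 and 282, 169.7 and 254 in the others with a full-length plasmid, and KRT18 had 321, 228 and 200.1 and 182, 295 and 190.1, so that the values of both sets overlap. The title and the transfection field of the 3 full-length arrays without the number 1 name different constructs, which leaves their being EZH2 plasmids unaffected.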

How the data were processed

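The authors deposited linear signal intensity for 28869 probe sets on 17 arrays, with biotin-labelled cDNA made from 100 ng of RNA, per the labels' protocols. Background correction, normalization and summarisation are not given in the sources used here. The platform annotation names 1 gene for 19310 probe sets, several for 1752 and none for 7807. The brightest probe set stood for each of 18377 genes, of which 685 had several. Signals were taken to log2, quantile-normalized over the arrays of a fit, and filtered at the 30th percentile of probe-set means.

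limma 3.58.1 (R 4.3.3, data.table package, version 1.17.8) tested 2 vector arrays against 4 pooled controls with 4 residual degrees of freedom, and 7 EZH2 plasmid arrays against 4 knockdown arrays with 9, by two-sided tests, calling genes at a Benjamini-Hochberg adjusted p under 0.05. Pooling keeps the difference between control arms in the spread. On simulated data for the first comparison (14466 genes), the fit recovered 49% of 100 changes of 1 log2 unit and 87% of 100 changes of 2, and 4 of its 140 calls were false. These figures describe the simulated data only and give no error rate for the 1804 calls. In the real arrays the median SD of log2 values was 0.322 between the vectors and 0.0785 among the controls. The consensus correlation of the random block was 0.908. With array weights 42 genes were called, and with the control arm as a random block 281. The number of arrays limits the precision.

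Members and the 35 gene lists were chosen with earlier results of these data known. Named genes are EZH2, ADAM19, ABCG2 and JAK3, the 12 rises and 12 falls with the largest smaller difference of both scales among called genes on 1 side on both scales, and from each list the 4 called members of smallest p, or 2 uncalled ones where none was called. Members named outside this rule to show a list's uncalled genes were chosen after their values were seen. Promoters and microRNAs are from RefSeq (GRCh38.p14), with a promoter listed for 11296 of the 14466 genes. Array numbers were not taken as pairs, since deviations of same-numbered arrays correlated at -0.253 (vector and JAK3 arm), 0.232 (vector and EZH2 arm) and -0.136 (both control arms). Alternatives were other scalings, filters, probe-set means, trend and robust eBayes, array weights, treatments of the control arm, the replicate block and leaving out each array.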

Additional observations from a re-analysis of the deposited data

Results flagged for a closer look

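Among the 126 genes picked by the naming rule, 8 had 1 of the 4 control arrays far from the other 3, measured as the gap to the nearest array over the whole range. Chance alone marks about 1 in 20 such groups. The first control array of the EZH2 arm stood apart in 5 of them. It was low for H2BC7 (457.3, against 542.2 to 562.5 on the others, gap 0.922), TPP1 (184.3, against 256.8 to 268.2, gap 0.88), MIR503 (102.0, against 139.0 to 149.1, gap 0.834) and PPBP (896.1, against 1520 to 1630, gap 0.94), and high for PHF19 (416.8, against 296.9 to 313.0, gap 0.883). The second control array of the EZH2 arm was low for TAP1 (538.9, against 602.2 to 623.4, gap 0.905) and high for SNORD60 (1258, against 1064 to 1079, gap 0.894). The first control array of the JAK3 arm was low for FCN1 (54.78, against 61.07 to 61.96, gap 0.89). In the 7 EZH2 plasmid arrays 0 of 28 genes were so marked.

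EZH2 moved in opposite directions in the 2 contrasts of plasmid and siRNA. Its log2 difference with the vector lay 2.23 below that with the EZH2 plasmids (a difference of differences of -2.23), and every array of a group lay on its side. This difference between the contrasts was not tested.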

How the results depend on the processing

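Calls rest on a spread pooled over 2 unlike vectors and 4 alike controls. The 1804 calls (402 higher, 1402 lower) became 42 with array weights (2 and 40), 281 with the control arm as a random block (27 and 254) and 1005 with a mean per arm (181 and 824). With only the JAK3 arm or only the EZH2 arm as controls limma called 0 genes in either direction, with 1996 and 1787 at an unadjusted p under 0.05, against 4694 with both arms. Fewer arrays remain in those fits. Leaving out 1 array at a time gave 561 to 10592 calls (80 to 4946 higher, 481 to 5646 lower). Without the controls of the JAK3 arm these were 561 and 572, without those of the EZH2 arm 676 and 689, and without vector arrays 1 and 2 they were 4167 and 10592. Higher calls numbered 239 as deposited, 93 with arrays centred on their median and 204 with arrays scaled to 1 interquartile range. The replicate block, whose numbers share only a number, gave 1627 calls, of which 1553 were among the 1804 with the same sign, and 1887 with the numbers of the JAK3 arm crossed, a setting added after seeing the data.

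Genes with both vectors on 1 side numbered 5621 to 11341 with 1 array left out (2379 to 5385 higher, 3197 to 5956 lower), and 3681 were higher on the deposited scale alone. In the EZH2 plasmid contrast, 4205 genes rose as deposited, and with centring 1532 rose and 5528 fell, against 2735 and 3443. Leaving out 1 array gave 1739 to 3120 rises and 2816 to 3750 falls, the fewest rises without the first JAK3 siRNA array.

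Of the 111 called genes picked by the naming rule, 95 kept call and sign as deposited, 85 with centring, 96 with scaling, 7 with array weights and 40 with the random block. Signs turned with centring for POLR3D (-0.08913), RELA (-0.1747), SEL1L (-0.03602), SLC3A2 (-0.01951), STAT3 (-0.1636), JARID2 (-0.004408) and TAP1 (-0.2361), as deposited for RELA (-0.002641) and TAP1 (-0.06406), and with scaling for HSP90AB1 (0.06232). The cause was not tested.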
